A study of Homo sapiens with 3 samples.

Results

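Amino acid transporters are membrane proteins that move amino acids into cells, out of them and out of lysosomes. The 40 genes described here are the listed members of the solute carrier families SLC1, SLC3, SLC7, SLC36, SLC38 and SLC43, chosen by gene symbol in the array annotation. Of these, 39 were measured by a probe set that names them alone, out of 18417 genes measured in all, and SLC43A3 was not. In irinotecan-resistant LoVo-R8 cells the exchanger genes SLC7A8 and SLC7A7 and the glutamate transporter gene SLC1A3 were at least 2-fold higher than in parental LoVo cells, with the drug in the medium and without it. The cationic transporter gene SLC7A2 and the SLC36 family gene SLC36A4 were at least 2-fold lower under both conditions. SLC7A11, the cystine transporter gene, was lower only on the array with irinotecan, 2.67-fold below the irinotecan-free array of the same line.

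The RNA of 3 cultures was hybridized to Affymetrix Human Gene 1.0 ST arrays, with 1 array each. These were LoVo-R8 cells cultured with 8 μM irinotecan, LoVo-R8 cells cultured irinotecan-free, and parental LoVo cells. LoVo is an established human colorectal cancer cell line, and LoVo-R8 is 1 line derived from it by stepwise exposure to irinotecan, starting at 0.1 μM and ending at 8 μM. Irinotecan is a camptothecin derivative whose active form traps topoisomerase I on DNA. A treatment note in the labels gives irinotecan for 24 hours before RNA purification and stands on all 3 arrays, and the sources used here do not state whether the parental culture received the drug. They do not state either whether LoVo-R8 was cloned from a single cell. No condition had a replicate, so no value has an error and no comparison has a p-value. Values are log2 levels as the authors normalized them with the robust multichip average (RMA) method, so subtracting them gives log2 differences, and a difference of 1 equals 2-fold, the size from which genes were counted.

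Cells take up amino acids by families of carriers with overlapping substrates. SLC1 members import glutamate or exchange small neutral amino acids, SLC7 members carry cationic amino acids or work as light chains that need an SLC3 heavy chain to reach the membrane, and SLC38 members import glutamine and other neutral amino acids with sodium. Some SLC36 members, among them SLC36A1, move small amino acids with protons, and SLC43A1 and SLC43A2 carry large neutral amino acids by facilitated diffusion. When amino acids run short or the endoplasmic reticulum is stressed, the transcription factor ATF4 is known to raise the transcription of several of these genes, among them SLC7A11, SLC3A2 and SLC38A2.

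The arrays had near-equal medians, between 6.94 and 6.95, and first quartiles between 5.39 and 5.42. Of 12 colon epithelial markers, 10 were at or above the array median on all arrays, among them EPCAM, KRT8 and KRT18. Against parental LoVo, CEACAM5, CEACAM6 and LGALS4 were lower and CDH17 higher on both LoVo-R8 arrays, each by at least 2-fold. Of 9 fibroblast markers 1 was at or above the median on all arrays, of 9 leukocyte markers 2, and of 7 endothelial markers 1. The leukocyte marker gene PTPRC was at 4.12 on all arrays, below their first quartiles. CD68, a lysosomal protein gene that many cell types express, was 1.86 above parental LoVo with irinotecan and 1.47 above it irinotecan-free, and its part in the results was not tested. Each array reads the RNA of a whole culture, so fewer cells of a type and less RNA per cell cannot be told apart. Between both LoVo-R8 arrays, 95% of all genes differed by less than 0.53 on the log2 scale.

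Of the 39 measured transporter genes, 8 differed by at least 2-fold between LoVo-R8 with irinotecan and parental LoVo, 4 of them higher and 4 lower with irinotecan. That is 10.3% in each direction, beside 2.25% of all genes higher and 2.30% lower. In irinotecan-free LoVo-R8, 3 were higher and 3 lower than in parental LoVo, or 7.69% in each direction, beside 1.64% and 2.78% of all genes. Both comparisons use the same parental array, so they are not independent of each other. The median difference of the 39 genes was -0.02 with irinotecan and 0.00 irinotecan-free, and the median of all genes was 0.00 in both. Between both LoVo-R8 arrays, with irinotecan against irinotecan-free, 0 of the transporter genes were higher and 1 was lower, beside 0.527% and 0.114% of all genes. With irinotecan 13 of the 39 lay above parental LoVo, 20 below it and 6 at its value, and irinotecan-free 18 lay above, 14 below and 7 at its value. Of all 18417 genes, 7532 lay above, 8233 below and 2652 at the parental value with irinotecan. Irinotecan-free, 9001 of all genes lay above, 7087 below and 2329 at it. In all 3 comparisons 30 of the 39 stayed within 2-fold.

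Low signal limits part of the group. Of the 39 genes, 20 were at or above the array median on all arrays and 5 lay below the first quartile on all of them. RMA on 3 arrays gave 10 genes the same value on at least 2 arrays, and SLC1A2, SLC7A3 and SLC36A2 had the same value on all 3. With the genes left out whose brighter array of a comparison was under the median, 24 remained against parental LoVo. Their median difference was -0.37 with irinotecan and -0.01 irinotecan-free, beside -0.01 with irinotecan and -0.01 irinotecan-free over all genes so filtered.

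**Figure D1:**
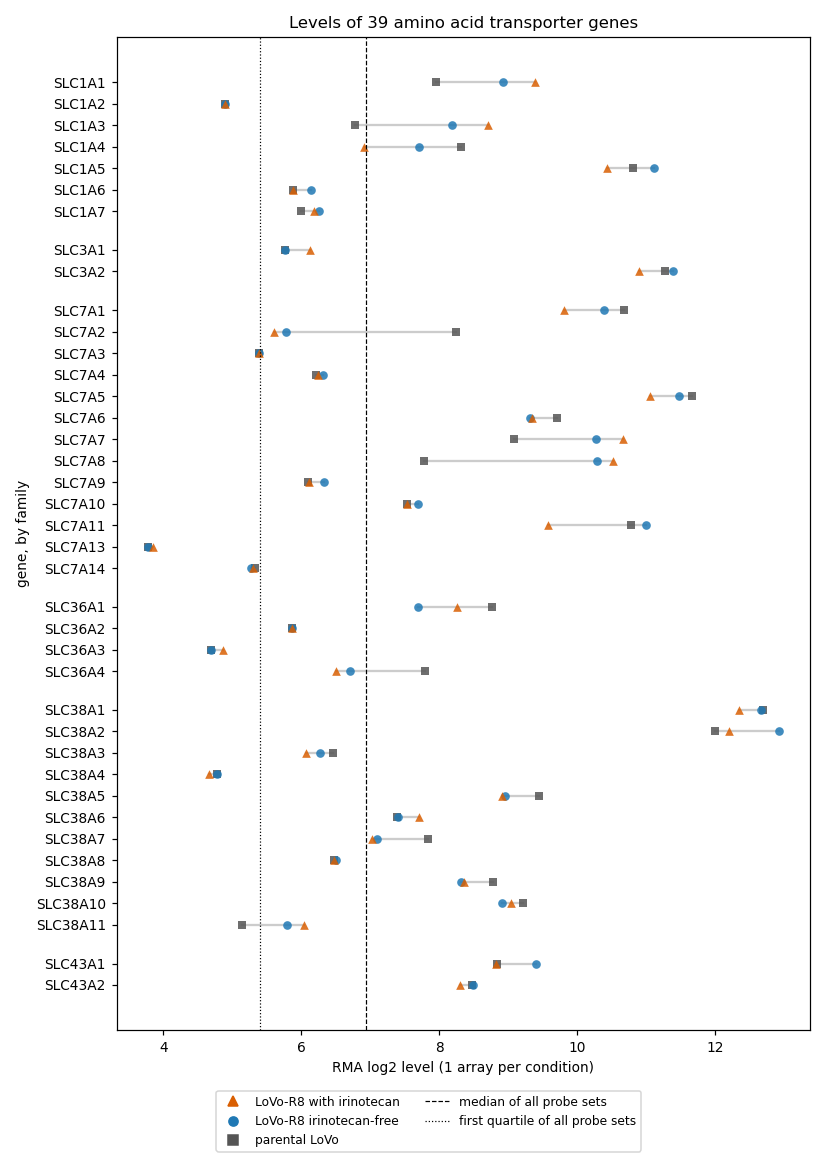
RMA log2 level (horizontal axis) of each of the 39 measured amino acid transporter genes (rows, by family) in LoVo-R8 with irinotecan (triangles), LoVo-R8 irinotecan-free (circles) and parental LoVo (squares), 1 array each, with vertical lines at the first quartile and the median of all probe sets. SLC7A8 lies at 10.52 with irinotecan, 10.29 irinotecan-free and 7.79 in parental LoVo, and SLC7A2 at 5.60 with irinotecan, 5.78 irinotecan-free and 8.25 in parental LoVo.

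Glutamate transporter genes of family SLC1 were at or above their parental levels on both LoVo-R8 arrays. SLC1A3, which encodes a high-affinity glutamate and aspartate transporter known best from glial cells, was at 8.71 in LoVo-R8 with irinotecan and 8.18 in irinotecan-free LoVo-R8, against 6.78 in parental LoVo. It was thus 3.80-fold higher with irinotecan and 2.64-fold higher irinotecan-free than in parental LoVo, where it lay just under the array median. SLC1A1 encodes the glutamate transporter of neurons and epithelia, which also carries cysteine, and was at 9.39 with irinotecan and 8.92 irinotecan-free, against 7.96 in parental LoVo. Its differences from parental LoVo were 1.44 with irinotecan and 0.97 irinotecan-free, so only the array with irinotecan reached 2-fold, while with loess correction (1.03) or repeated quantile normalization (1.04) the irinotecan-free array did so too. The other 3 glutamate transporter genes, SLC1A2, SLC1A6 and SLC1A7, lay between 0.00 and 0.27 from parental LoVo on both arrays, at levels under the array median.

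The exchangers of small neutral amino acids lay on the other side or near parental levels. SLC1A4, which carries alanine, serine and cysteine, was at 6.91 in LoVo-R8 with irinotecan and 7.71 in irinotecan-free LoVo-R8, against 8.32 in parental LoVo, with differences of -1.41 with irinotecan and -0.62 irinotecan-free. It was lower on both LoVo-R8 arrays than in parental LoVo and lowest with the drug, where alone it passed 2-fold. The gene lies on chromosome 2 at 64988479 to 65023865 (probe set 8042310). SLC1A5 encodes the main glutamine exchanger of many tumour cells and was at 10.43 with irinotecan and 11.12 irinotecan-free, against 10.81 in parental LoVo. The parental level lay between both LoVo-R8 levels, and neither difference (-0.38 with irinotecan and 0.31 irinotecan-free) reached 1.5-fold. A second, dimmer probe set of SLC1A5 had differences of -0.12 with irinotecan and 0.33 irinotecan-free.

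The heavy chains were within 1.5-fold of parental LoVo. SLC3A2, the heavy chain shared by 6 of the light chains measured here (SLC7A5, SLC7A6, SLC7A7, SLC7A8, SLC7A10 and SLC7A11), was at 10.90 in LoVo-R8 with irinotecan and 11.39 in irinotecan-free LoVo-R8, against 11.27 in parental LoVo. SLC3A1, the heavy chain of the renal and intestinal cystine transporter, was at 6.13 with irinotecan and at 5.76 both irinotecan-free and in parental LoVo, all under the array median. The light chains that pair with SLC3A2 thus differed from one another on arrays where the level of their shared partner differed from parental LoVo by -0.37 with irinotecan and 0.12 irinotecan-free.

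SLC7A8 had the largest difference from parental LoVo among the 39 measured genes of the 6 families. It encodes a light chain that exchanges neutral amino acids at the basolateral face of intestinal and renal epithelia. Its level was 10.52 in LoVo-R8 with irinotecan and 10.29 in irinotecan-free LoVo-R8, against 7.79 in parental LoVo. That is 6.66-fold higher with irinotecan and 5.69-fold higher irinotecan-free. By its difference from parental LoVo, SLC7A8 ranked 24 from the highest among all 18417 genes, both with irinotecan and irinotecan-free. SLC7A7, the light chain that releases arginine and lysine from epithelial cells in exchange for neutral amino acids, was at 10.67 with irinotecan and 10.28 irinotecan-free, against 9.09 in parental LoVo, or 2.99-fold higher with irinotecan and 2.28-fold higher irinotecan-free. Both genes were higher on each LoVo-R8 array than in parental LoVo, and the LoVo-R8 arrays differed from each other by 0.23 for SLC7A8 and 0.39 for SLC7A7.

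SLC7A11 and SLC7A5 had other patterns. SLC7A11 encodes the light chain that imports cystine in exchange for glutamate and so feeds glutathione synthesis. It was at 9.58 in LoVo-R8 with irinotecan and 11.00 in irinotecan-free LoVo-R8, against 10.79 in parental LoVo, with differences from parental LoVo of -1.21 with irinotecan and 0.21 irinotecan-free. Only the array with irinotecan stood apart, below both others. SLC7A5, the light chain of the main importer of leucine and other large neutral amino acids, was at 11.06 with irinotecan and 11.47 irinotecan-free, against 11.67 in parental LoVo. Its difference of -0.61 with irinotecan passed 1.5-fold but not 2-fold, and that without the drug was -0.20. The light chain genes SLC7A6, SLC7A9, SLC7A10 and SLC7A13 were not past 1.5-fold on either array.

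**Figure D2:**
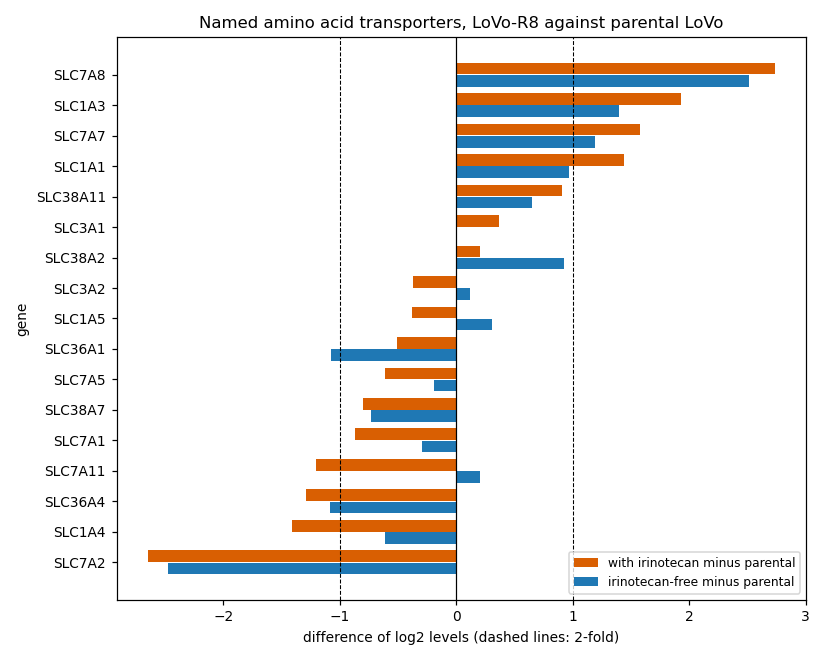
Difference of log2 levels from parental LoVo (horizontal axis) of 17 amino acid transporter genes (rows) in LoVo-R8 with irinotecan (orange bars) and LoVo-R8 irinotecan-free (blue bars), with dashed lines at 2-fold and 1 array per condition. SLC7A8 lies at 2.74 with irinotecan and 2.51 irinotecan-free at the top and SLC7A2 at -2.65 with irinotecan and -2.47 irinotecan-free at the bottom, and SLC7A11 lies on opposite sides of zero (-1.21 with irinotecan and 0.21 irinotecan-free).

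Of the 5 genes of the cationic amino acid transporter branch of family SLC7, SLC7A2 alone passed 2-fold. It encodes an arginine and lysine transporter that cytokines are known to induce in several cell types. Its level was 5.60 in LoVo-R8 with irinotecan and 5.78 in irinotecan-free LoVo-R8, against 8.25 in parental LoVo, or 6.26-fold lower with irinotecan and 5.56-fold lower irinotecan-free. Both LoVo-R8 levels were under the array median, where background limits the size of a difference. Counted from the lowest difference up, SLC7A2 ranked 40 with irinotecan and 64 irinotecan-free. SLC7A1, the widely expressed arginine transporter gene, was at 9.82 with irinotecan and 10.39 irinotecan-free, against 10.69 in parental LoVo. Its difference of -0.87 with irinotecan was between 1.5-fold and 2-fold, and that of -0.30 without the drug was smaller. SLC7A3, SLC7A4 and SLC7A14 were under the array median on all arrays and lay between -0.06 and 0.11 from parental LoVo.

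SLC7A7 and SLC7A8 lie near each other on chromosome 14 (GRCh38.p14), SLC7A7 at 22773222 to 22819791 (probe set 7977786) and SLC7A8 at 23125295 to 23183660 (probe set 7977933). The stretch between them was looked at after their values had been seen. The 15 measured genes between them had a median difference of -0.02 in LoVo-R8 with irinotecan and 0.01 in irinotecan-free LoVo-R8 against parental LoVo. Of these, C14orf93 alone passed 2-fold, at 1.21 with irinotecan and 0.73 irinotecan-free. The proteasome subunit gene PSMB5 was the lowest on both arrays (-0.49 with irinotecan and -0.75 irinotecan-free). The higher levels of both exchanger genes were thus not shared by most genes between them.

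**Figure D3:**
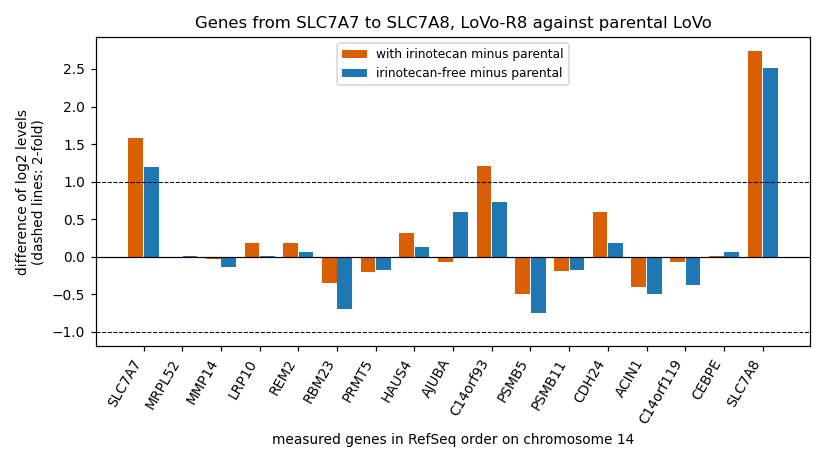
Difference of log2 levels from parental LoVo (vertical axis) of SLC7A7, SLC7A8 and the 15 measured genes between them in RefSeq order on chromosome 14, in LoVo-R8 with irinotecan (orange bars) and LoVo-R8 irinotecan-free (blue bars), with dashed lines at 2-fold. The genes at both ends lie above 2-fold on both arrays. Between them C14orf93 alone passes 2-fold, with irinotecan (1.21) but not irinotecan-free (0.73).

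The same was done for 5 measured genes on each side of every transporter gene past 2-fold of parental LoVo on either array. The medians of these neighbours lay between -0.03 and 0.18 with irinotecan and between -0.09 and 0.15 irinotecan-free. Some of the neighbours had low signal, which draws a median towards zero. Beside SLC7A2, for example, MICU3 (4.34), MTMR7 (4.98) and FGL1 (3.40) had the same value on all arrays. SLC1A1, on chromosome 9 at 4490468 to 4587469 (probe set 8154135), had 3 neighbours that were higher on both arrays by 2-fold or more. These were the transcription factor genes RFX3 (1.01 with irinotecan and 1.64 irinotecan-free) and GLIS3 (2.85 with irinotecan and 2.99 irinotecan-free) and the antisense gene GLIS3-AS1 (2.58 with irinotecan and 2.77 irinotecan-free). SLC7A2, on chromosome 8 at 17494069 to 17570566 (probe set 8144786), had ZDHHC2, a protein palmitoyltransferase gene, lower on both arrays (-2.77 with irinotecan and -2.26 irinotecan-free), while its other 9 neighbours stayed within 2-fold. Beside SLC1A4, CEP68 had 1.20 with irinotecan and 0.69 irinotecan-free. Beside SLC36A1, GM2A had 1.34 with irinotecan and 0.67 irinotecan-free, and G3BP1 had -0.78 with irinotecan and -1.12 irinotecan-free. Beside SLC36A4, CHORDC1 had -0.67 with irinotecan and -1.19 irinotecan-free. SMCO4 (-0.42 with irinotecan and -0.99 irinotecan-free) and CEP295 (-0.66 with irinotecan and -0.99 irinotecan-free), also beside SLC36A4, came close to 2-fold. Above parental LoVo irinotecan-free lay its neighbours SCARNA9 (0.96 with irinotecan and 0.66 irinotecan-free), MTNR1B (0.23 and 0.21) and TAF1D (0.00 and 0.20). What these neighbours have to do with the values of the transporter genes was not tested. SLC7A7 and SLC7A8 had 0 of 10 neighbours each past 2-fold. SLC1A3, on chromosome 5 at 36596588 to 36688334 (probe set 8104930), had 0 of 10 neighbours past 2-fold, and SLC7A11, on chromosome 4 at 138164097 to 138242349 (probe set 8102800), had 0 of 10.

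In family SLC36, 1 of 4 genes (25%) was at least 2-fold lower with irinotecan and 2 of 4 (50%) irinotecan-free, and 0 were higher. Of all genes, 2.30% were lower with irinotecan and 2.78% irinotecan-free, and 2.25% and 1.64% were higher. With 4 genes the shares of the family are coarse. SLC36A4, a high-affinity transporter of proline and tryptophan, was at 6.50 in LoVo-R8 with irinotecan and 6.71 in irinotecan-free LoVo-R8, against 7.79 in parental LoVo, or 2.45-fold lower with irinotecan and 2.12-fold lower irinotecan-free. It was under the array median on both LoVo-R8 arrays and above it in parental LoVo. Its gene lies on chromosome 11 at 93144174 to 93197991 (probe set 7950990). SLC36A1, which releases small neutral amino acids from lysosomes and imports them across the intestinal brush border, was at 8.26 with irinotecan and 7.69 irinotecan-free, against 8.77 in parental LoVo. Its differences were -0.51 with irinotecan and -1.08 irinotecan-free, so it passed 2-fold on the irinotecan-free array alone. Its RefSeq span on chromosome 5, at 151344596 to 151556085 (probe set 8109350), overlaps that of SLC36A2. SLC36A2 and SLC36A3 were under the array median on all arrays and lay within 0.17 of parental LoVo on both LoVo-R8 arrays.

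None of the 11 genes of family SLC38 passed 2-fold against parental LoVo. Of all genes, 2.25% were higher and 2.30% lower with irinotecan, and 1.64% higher and 2.78% lower irinotecan-free. SLC38A2, the sodium-coupled importer of glutamine and other small neutral amino acids that adapts to amino acid supply, came closest, at 12.20 in LoVo-R8 with irinotecan and 12.93 in irinotecan-free LoVo-R8, against 12.00 in parental LoVo. It was highest on the irinotecan-free array, with differences of 0.21 with irinotecan and 0.93 irinotecan-free. SLC38A11 was at 6.05 with irinotecan and 5.79 irinotecan-free, against 5.14 in parental LoVo, where it lay under the first quartile. SLC38A7, a lysosomal glutamine exporter gene, was at 7.03 with irinotecan and 7.10 irinotecan-free, against 7.83 in parental LoVo, so both LoVo-R8 arrays were lower, by less than 2-fold. SLC38A9 encodes the lysosomal arginine sensor of the kinase complex mTORC1 and had differences of -0.41 with irinotecan and -0.46 irinotecan-free. The other 7 genes lay between -0.54 and 0.32 with irinotecan and between -0.50 and 0.03 irinotecan-free. Among them the importer gene SLC38A1 was at 12.35 with irinotecan and 12.67 irinotecan-free, against 12.70 in parental LoVo. SLC38A12, a further symbol of this family in the array annotation that is not among the 40 listed genes, had -0.47 with irinotecan and -0.83 irinotecan-free.

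Both measured SLC43 genes were within 1.5-fold of parental LoVo. SLC43A1 was at 8.82 in LoVo-R8 with irinotecan and 9.41 in irinotecan-free LoVo-R8, against 8.84 in parental LoVo, and SLC43A2 lay within 0.16 of its parental level on both arrays. SLC43A1 was thus highest on the irinotecan-free array, as SLC38A2 was.

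Between both LoVo-R8 arrays, the transporter genes known as targets of the amino acid response were lower with irinotecan. This list of 7 genes, SLC7A11, SLC3A2, SLC7A5, SLC7A1, SLC1A4, SLC1A5 and SLC38A2, was taken from textbook knowledge with earlier results of these data known. All 7 were lower with irinotecan than irinotecan-free, with differences between -1.41 and -0.42 and a median of -0.69, while the median of the other 32 measured transporter genes was 0.00 and that of all genes 0.00. SLC7A11 passed 2-fold and ranked 5 from the lowest of all 18417 genes. SLC1A4 (-0.79), SLC38A2 (-0.72), SLC1A5 (-0.69), SLC7A1 (-0.57), SLC3A2 (-0.49) and SLC7A5 (-0.42) were lower by less than 2-fold. Of the 7 genes, 6 were below -0.45, a limit that 2.50% of all genes lie beyond, and of the other 32 transporter genes SLC43A1 alone was. Under median centring, loess correction, repeated quantile normalization and the mean over probe sets, each of the 7 differences kept its direction. The mean over probe sets could change SLC1A5 alone, and median centring moves all genes by the same amount.

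Against parental LoVo the median of the same list lay below zero with the drug and above zero without it. With irinotecan its median was -0.61, with 6 genes below zero and 1 above. Irinotecan-free its median was 0.12, with 3 below and 4 above. SLC1A4, SLC7A1 and SLC7A5 were below parental LoVo on both arrays, SLC38A2 was above it on both, and SLC7A11, SLC3A2 and SLC1A5 were below it with irinotecan and above it irinotecan-free.

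**Figure D4:**
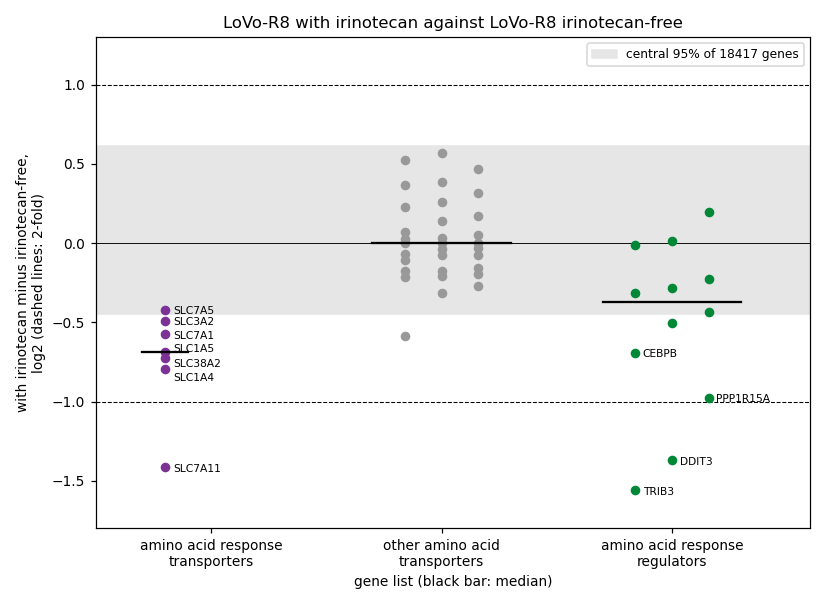
Difference of log2 levels between LoVo-R8 with irinotecan and LoVo-R8 irinotecan-free (vertical axis) for 7 amino acid response transporters, the other 32 measured amino acid transporters and 12 regulators of the amino acid response, with 1 point per gene, black bars at the medians, dashed lines at 2-fold and a grey band over the central 95% of all genes. The first group lies between -1.41 and -0.42 with a median of -0.69, and the second has a median of 0.00.

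ATF4 binds the C/EBP-ATF response element together with a C/EBP protein. The core TGATGNAA of this element was searched on both strands of RefSeq promoters (GRCh38.p14), which run from 250 bases before to 50 bases after the start of a transcript. Of the 40 transporter genes, 31 had a promoter in the table used, and 6 of them (19.4%) held the core in at least 1 promoter, beside 4.46% of 27305 genes of the table. A gene can have several promoters, and counted by promoter the core was in 6 of 53 (11.3%) of the transporter genes, beside 3.62% of all 35116. Of the 6 amino acid response transporters with a promoter, SLC1A4, SLC1A5, SLC3A2 and SLC7A1 held it, and SLC7A5 and SLC38A2 did not. The list was made of known ATF4 targets, so the presence of the core is no independent result, and a match is a description of letters, not a bound site. SLC1A3 and SLC38A1 held it too, and their differences with irinotecan against irinotecan-free were 0.53 for SLC1A3 and -0.31 for SLC38A1.

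The windows below show each core with the bases around it, read 5′ to 3′ on the strand of the gene, with the core in capitals. In SLC1A4 and SLC3A2 the core reads on the opposite strand, so the capitals show its reverse complement. Counted from the transcript start, the core begins at base -97 in SLC1A5, -7 in SLC1A4, -220 in SLC1A3, -4 in SLC38A1, 8 in SLC7A1 and 38 in SLC3A2. In SLC1A4, SLC1A5, SLC3A2 and SLC38A1 the window lies inside the RefSeq span of the gene, so the start counted from is not its outermost one.
SLC1A4 (chr2:64989381-64989410, plus strand): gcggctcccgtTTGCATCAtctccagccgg
SLC1A5 (chr19:46784893-46784922, minus strand): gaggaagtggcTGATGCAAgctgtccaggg
SLC3A2 (chr11:62881719-62881748, plus strand): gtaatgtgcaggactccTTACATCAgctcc
SLC7A1 (chr13:29595663-29595692, minus strand): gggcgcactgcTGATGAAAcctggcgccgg
SLC1A3 (chr5:36596357-36596386, plus strand): caggaaatgacTGATGCAAagcagggttaa
SLC38A1 (chr12:46266502-46266531, minus strand): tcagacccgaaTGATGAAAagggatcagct

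Of 12 measured regulators of this response, 10 lay below zero between both LoVo-R8 arrays and 2 above. Of all 18417 genes, 8916 lay below zero and 7265 above. By at least 2-fold, 0 regulators were higher and 2 lower with irinotecan than irinotecan-free, beside 0.527% and 0.114% of all genes. The median of the 12 was -0.37. TRIB3, a pseudokinase gene induced by ATF4, was at 8.80 in LoVo-R8 with irinotecan and 10.36 in irinotecan-free LoVo-R8, and DDIT3, which encodes the transcription factor CHOP, was at 9.29 with irinotecan and 10.66 irinotecan-free. Their parental levels were 9.26 for TRIB3 and 9.47 for DDIT3, so irinotecan-free LoVo-R8 stood above both other arrays. ATF4 itself differed by -0.43 between both LoVo-R8 arrays. Against parental LoVo, 0 regulators passed 2-fold with irinotecan, and DDIT3 (1.19), TRIB3 (1.10) and PPP1R15A (1.40), whose product helps to dephosphorylate eIF2alpha, were higher irinotecan-free. That is 3 of the 12 regulators (25%) at least 2-fold higher irinotecan-free, beside 1.64% of all genes. EIF2AK3, the stress kinase gene of the endoplasmic reticulum, had -0.99 with irinotecan and -0.98 irinotecan-free from parental LoVo.

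Cystine that SLC7A11 imports is used for glutathione. Of 5 measured genes of this pathway, CHAC1, whose product degrades glutathione, was at 7.60 in LoVo-R8 with irinotecan and 9.29 in irinotecan-free LoVo-R8, against 9.28 in parental LoVo. It was low on the array with irinotecan alone, as SLC7A11 was. The subunit genes of glutamate-cysteine ligase, GCLC (-0.80 with irinotecan and -0.75 irinotecan-free) and GCLM (-0.81 with irinotecan and -0.83 irinotecan-free), were below parental LoVo by like amounts on both LoVo-R8 arrays, without reaching 2-fold. CTH, the cystathionine lyase gene, had -0.41 with irinotecan and -0.05 irinotecan-free. GSS, the glutathione synthetase gene, was above parental LoVo, by 0.24 with irinotecan and 0.34 irinotecan-free.

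Amino acid transporters outside the 6 families were looked at in the same way. Many of those of the plasma membrane and vesicles, such as SLC6A5, SLC6A7 and SLC17A6, were under the array median on all arrays. Of 21 measured ones of the plasma membrane and vesicles, 1 was at least 2-fold lower and 0 higher than in parental LoVo on each LoVo-R8 array. That is 4.76% lower, beside 2.30% of all genes with irinotecan and 2.78% irinotecan-free. Of all genes, 2.25% were higher with irinotecan and 1.64% irinotecan-free. The lower gene was the glycine transporter gene SLC6A9, at 7.01 with irinotecan and 7.31 irinotecan-free, against 8.65 in parental LoVo. SLC6A6, a taurine transporter gene, had 0.85 with irinotecan and 0.20 irinotecan-free, CTNS, the lysosomal cystine exporter gene, -0.80 with irinotecan and -0.63 irinotecan-free, and the peptide transporter gene SLC15A2 0.57 with irinotecan and 0.12 irinotecan-free. Of 9 mitochondrial amino acid carriers 0 passed 2-fold on either array, and their differences lay between -0.40 and 0.25. With shares of all genes as low as those given above, 0 of 9 is not a result about these carriers. SLC25A13, the aspartate and glutamate carrier gene of liver and other tissues, had -0.36 with irinotecan and -0.40 irinotecan-free.

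The lysosomal machinery that senses amino acids for mTORC1 had 0 of 17 measured genes past 2-fold of parental LoVo with irinotecan and 1 irinotecan-free. That gene was lower, or 5.88%, beside 2.78% of all genes lower irinotecan-free. With irinotecan 2.25% of all genes were higher and 2.30% lower, so 0 of 17 is not a result about this list. The Rag GTPase gene RRAGD was at 9.70 in LoVo-R8 with irinotecan and 8.65 in irinotecan-free LoVo-R8, against 10.08 in parental LoVo, so it was low irinotecan-free alone and 1.05 higher with the drug. MTOR had differences from parental LoVo of -0.89 with irinotecan and -0.95 irinotecan-free, RRAGC -0.90 with irinotecan and -0.55 irinotecan-free, and the Ragulator subunit gene LAMTOR3 -0.40 with irinotecan and -0.72 irinotecan-free.

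Other solute carriers with symbols of the form SLC, a number, A and a number give a setting for these counts. There were 289 measured genes of this form outside the members and SLC38A12. Of these, 3 were at least 2-fold higher and 7 lower in LoVo-R8 with irinotecan than in parental LoVo, or 1.04% and 2.42%. In irinotecan-free LoVo-R8, 2 were higher and 9 lower, or 0.692% and 3.11%. Between both LoVo-R8 arrays, 0 of the 289 genes passed 2-fold in either direction, against SLC7A11 among the amino acid transporters. Whether the shares differ between the groups of carriers was not tested.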

How the data were processed

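The authors hybridized 300 ng of total RNA per culture to Affymetrix Human Gene 1.0 ST arrays, 1 per condition. As deposited, the values are log2 levels of 33297 probe sets. The authors made them by RMA, which corrects background, equalizes quantiles across arrays and summarizes each probe set by median polish. Expression Console 1.1 of Affymetrix is listed in the submitters' processing notes, and R with Bioconductor in the paper's methods. Quantile normalization gives the arrays alike distributions, so a shift of most genes in 1 direction could not be seen.

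Samples were grouped by their labels. Each gene was represented by the brightest probe set that names it alone (19460 such probe sets, 18417 genes), named from the array annotation, and all 39 measured members were placed on RefSeq GRCh38.p14. Differences were subtracted log2 levels. With no replicate in any condition no test was run, and precision is limited by there being 3 arrays. Every transporter gene past 2-fold in any comparison or past 1.5-fold against parental LoVo, both heavy chains and the amino acid response list were named with their values, and up to 4 genes of each further pathway list, those with the largest differences from parental LoVo. ATF4, GSS, the cell type markers, neighbouring genes, SLC38A1, SLC38A9, SLC38A12, SLC43A1 and the other solute carriers were named outside this rule, after their values were seen. Members and lists were chosen with earlier results of these data known. The calculation was tested on simulated data, where recovery was required of added differences above 3-fold but not of those at 2-fold. Results were recomputed with thresholds of 1.5-fold and 3-fold, and with median centring, loess correction (span 0.3, 3 iterations), repeated quantile normalization, dim filters at the 25th and 50th percentile, and the mean over probe sets. A further 2 alternatives, adding SLC38A12 or a probe set shared by SLC43A3 and PRG2, were chosen after seeing the data. Python 3.11.15 with numpy 2.4.6, pandas 2.3.3, statsmodels 0.14.6 and matplotlib 3.10.9 was used.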

Additional observations from a re-analysis of the deposited data

Results flagged for a closer look

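For 4 genes, 1 LoVo-R8 array was past 2-fold of parental LoVo and the other lay on the opposite side of it. With 1 array per condition these differences between the arrays were not tested. SLC7A11 had a log2 difference from parental LoVo of -1.21 with irinotecan and 0.21 irinotecan-free. DDIT3 had -0.18 with irinotecan and 1.19 irinotecan-free, and TRIB3 had -0.46 with irinotecan and 1.10 irinotecan-free. CHAC1 had -1.68 with irinotecan and 0.00752 irinotecan-free.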

How the results depend on the processing

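The 51 differences of the 17 named transporter genes were recomputed under median centring, loess correction, repeated quantile normalization and the mean over probe sets. Of the 17 genes SLC1A5 alone has several probe sets that name it alone, so the mean over probe sets could not change the others. Median centring moves all genes of a comparison by the same small amount. Part of the agreement was thus fixed in advance. All 204 values stayed within 0.26 of the main one, the SD over genes between both LoVo-R8 arrays, and 0 of the differences past 2-fold changed direction. SLC1A1 in irinotecan-free LoVo-R8 was the only one to cross 2-fold against parental LoVo, with loess correction (1.03) and repeated quantile normalization (1.04). The counts moved with the threshold. At 1.5-fold, 5 transporter genes were higher and 7 lower with irinotecan than in parental LoVo (5.79% and 7.19% of all genes), 6 were higher and 5 lower irinotecan-free (4.37% and 8.84%), and 5 were lower with irinotecan than irinotecan-free (1.08%). At 3-fold, 2 were higher and 1 lower with irinotecan than in parental LoVo (0.733% and 0.831% of all genes), 1 higher and 1 lower irinotecan-free (0.483% and 0.977%), and 0 lower with irinotecan than irinotecan-free (0.00543%). With only the 24 transporter genes whose higher array reached the array median, their median difference with irinotecan from parental LoVo was -0.37, against -0.01 for all genes so filtered. No paired analysis was possible because each condition has a single array. Without replicates, leaving 1 out was not possible either, and differences of genes under the first quartile are limited by background.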

Other observations

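SLC43A3, a purine nucleobase transporter gene, is named only by a probe set that also names PRG2, so it has no value of its own here. That probe set was at 6.52 in LoVo-R8 with irinotecan and 6.06 in irinotecan-free LoVo-R8, against 9.47 in parental LoVo, with differences of -2.95 with irinotecan and -3.41 irinotecan-free, and which of the genes it reads cannot be told apart. Counting it as a transporter would make 5 lower genes with irinotecan and 4 irinotecan-free.

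Solute carriers of other substrates held further genes past 2-fold of parental LoVo. The choline transporter-like gene SLC44A4 had differences of -2.64 with irinotecan and -2.77 irinotecan-free, SLC16A14, an orphan of the monocarboxylate transporter family, -1.84 with irinotecan and -1.87 irinotecan-free, and the zinc transporter gene SLC39A7 -1.26 with irinotecan and -1.63 irinotecan-free. SLC46A3, a lysosomal carrier gene, had 1.22 with irinotecan and 0.46 irinotecan-free, and SLC44A5 0.53 with irinotecan and 1.40 irinotecan-free. They were picked out for their values.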
